A study of Mus musculus with 6 samples.

Results

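Forkhead transcription factors, the Fox family, were examined across the stroma of the mouse intestine. The members were all genes whose symbol is Fox followed by 1 letter and digits, which gave 45 of the 33697 genes counted. The symbols alone chose them, and no measured value was used. The cells were live tdTomato+ lamina propria cells sorted from adult Flare-TSLP mice of both sexes on the C57BL/6 background, in which a tdTomato reporter cassette sits in the gene for the cytokine TSLP. The sort was made on the reporter, and no filter on tdTomato reads was applied here, so that cells of a class need not all be reporter-positive. 6 droplet 3′ RNA libraries were sequenced, of which 2 came from the proximal (proximal 1 and 2) and 2 from the distal small intestine (distal 1 and 2), and 1 each from cecum and large intestine. No treatment was given to any group. Each library carried 3 hashtag antibodies, and since the sources used here do not pair a hashtag with a mouse, the library was the sample and p-values measure the spread between libraries.

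Forkhead proteins bind DNA through a winged helix domain, in which 1 helix lies in the major groove and reads the sequence. In the gut wall, Foxf1, Foxf2 and Foxl1 are mesenchymal factors, and Foxf1 and Foxl1 are known responders to hedgehog ligands made by the epithelium. Foxl1 marks telocytes, the subepithelial cells that supply WNT and BMP signals to the epithelium, Foxc2 is needed for lymphatic valves, and Foxo factors are held out of the nucleus when insulin or growth factor signalling is active.

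Cells were assigned to classes by marker genes, with no Fox gene among the markers, and the UMIs of a gene were summed per class and library and given as CPM, that is scaled to the same UMI total in each sum. Between 11751 and 21299 cells per library passed the filters, 8.39% to 13.8% of them were dropped for carrying several hashtags, and 44.0% to 75.5% received a class, 67088 cells in all. The share without a class was highest in the cecum, at 45.6%. UMIs on genes numbered 109675337 to 206827504 per library, and 38 to 118 cell barcodes were shared by each of the 15 pairs of libraries. Fibroblasts with UMIs of at least 2 of Ptn, Scg2 and Gdf10 were first set apart, 173 to 646 cells per library. They are not counted among the fibroblast classes and sums below. The other fibroblasts were split into telocyte-like (Bmp3, Bmp5, Bmp7, Wnt5a, F3, Sox6, Lgr5), subepithelial myofibroblast (SEMF)-like (such as Wnt4, Agt, Procr and Nrg1), trophocyte-like (such as Grem1, Dkk2, Ackr4 and Cd81) and universal fibroblast-like cells (such as Pi16 and Dpp4). Telocyte-like and SEMF-like cells held like sums of the SEMF markers, 2573 to 4334 and 2850 to 4242 CPM, and were separated by the telocyte markers, at 3978 to 7550 against 301 to 1166. The telocyte markers are the genes of the gate, so that this separation was set by the gate. The summed trophocyte markers did not separate the classes, at 2829 to 8449 CPM in trophocyte-like, 4365 to 11860 in SEMF-like and 1914 to 9006 in telocyte-like cells, and Adamdec1 made up most of that sum in SEMF-like cells (6980 CPM on average). Ackr4, Cd34 and Grem1 did separate them, with means of 241, 434 and 852 CPM in trophocyte-like, 5.62, 54.5 and 28.6 in SEMF-like and 34.8, 90.0 and 143 in telocyte-like cells, without overlap. Cells were assigned by these same genes, so that this separation was set in part by the gate. The gate genes Dkk2, Cd81 and Vwc2 are not given here. The trophocyte name was weakest in the cecum and large intestine, where the sum of that class was 2829 to 3295 against 4828 to 8449 in the small intestine. In the large bowel it also lay below the sums of SEMF-like (8888 to 11860) and telocyte-like cells (4564 to 9006). The summed markers thus do not bear out the name there. Telocyte-like cells numbered 56 to 116 in each small intestinal library, 426 in the cecal library and 2904 in that of the large intestine.

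The stretch of the coding sequence that encodes the DNA-reading helix is shown for 8 members, because the members that shared a cell class often did not share their helix codons. It was found by translated match in 35 of the 45 genes and in all 19 described below. The bases were read from the GRCm39 genome on the coding strand, 5′ to 3′. Capitals mark bases that differ from Foxf1.
Foxf1, chr8:121811417-121811446, plus strand: aactccgtgcgccacaacctgtcgctcaac
Foxf2, chr13:31810498-31810527, plus strand: aactccgtgcgccacaacctCtcgctcaac
Foxq1, chr13:31743380-31743409, plus strand: aactccgtgcgccacaacctCtcgctcaac
Foxl1, chr8:121854983-121855012, plus strand: aacAGcAtCcgccacaacctgtcgctcaac
Foxd3, chr4:99545390-99545419, plus strand: aacAGcAtCcgccacaacctgtcgctcaac
Foxc2, chr8:121843702-121843731, plus strand: aacAGcAtCcgccacaacctgtcActcaaT
Foxs1, chr2:152774833-152774862, minus strand: aacAGcAtCcgccaTaacctgtcTctcaac
Foxc1, chr13:31991560-31991589, plus strand: aacAGcAtAcgGcacaacctCtcgctcaac
Foxf2 and Foxq1 differed from Foxf1 at 1 base of the 30, and that change is silent. Foxl1, found below in the same cells as these 3 genes, had 4 differences and 1 codon for another residue, and was identical here to Foxd3, a factor of neural crest and glia.

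Genes of the gut mesenchyme and of the vessels lie near one another in the genome. On chromosome 8 of GRCm39, Foxf1 (121811074 to 121814883), Foxc2 (121842910 to 121845634) and Foxl1 (121854679 to 121857383) stand on the plus strand within 46.3 kb, with 28.0 kb between the first pair and 9.04 kb between the second. Another protein-coding gene lies between Foxf1 and Foxc2. Fendrr, a long noncoding RNA, runs away from Foxf1 on the minus strand, at 121781621 to 121809849. On chromosome 13, Foxq1 (31740117 to 31744959), Foxf2 (31809663 to 31816393) and Foxc1 (31990616 to 31996459) lie within 256 kb, again all on the plus strand. In each trio 1 member, Foxc2 or Foxc1, was lower in fibroblasts than in LEC-like cells, while Foxf1 and Foxf2 were higher there, as given below. Other gene models overlap Foxf1, Foxf2, Foxq1, Foxs1 and Foxd3 on the opposite strand and Foxc1 and Foxd3 on the same strand, and the sources used here do not give the strand setting of the counting.

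All 45 members were accounted for. A class counted in a library where it held at least 30 cells, and was used where it did so in at least 2 libraries. 19 members averaged at least 20 CPM in some class of this kind. 6 more peaked between 1 and 20, namely Foxp3 in T cell or ILC-like cells at 17.8 ± 8.81 (SD, n = 4 libraries), Foxd2 in glia-like cells at 12.9, Foxo4 in pericyte-like cells at 10.9, Foxj1 in glia-like cells at 5.46, Foxm1 in T cell or ILC-like cells at 4.71 and Foxr1 in myeloid-like cells at 1.31. Another 13 stayed under 1 in these classes. They include Foxa1, Foxa2 and Foxa3, factors of the gut epithelium, because epithelial-like cells reached 30 cells in 1 library and were left out. In the 47 epithelial-like cells of the large intestine these 3 genes held 62.96, 49.0 and 59.5 CPM, against 2.01, 1.81 and 2.01 in barcodes of the same library with at most 100 UMIs, which hold free RNA. No UMI of the remaining 7 (Foxb1, Foxb2, Foxe3, Foxh1, Foxi1, Foxi2 and Foxi3) was seen in any classed cell, and a count of 0 allows up to 0.0324 CPM (3 counts) in the trophocyte-like cells of distal 1, the largest sum. Levels are compared here between classes within a gene and not between genes, since the yield of 3′ tags differs between genes.

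**Figure D1:**
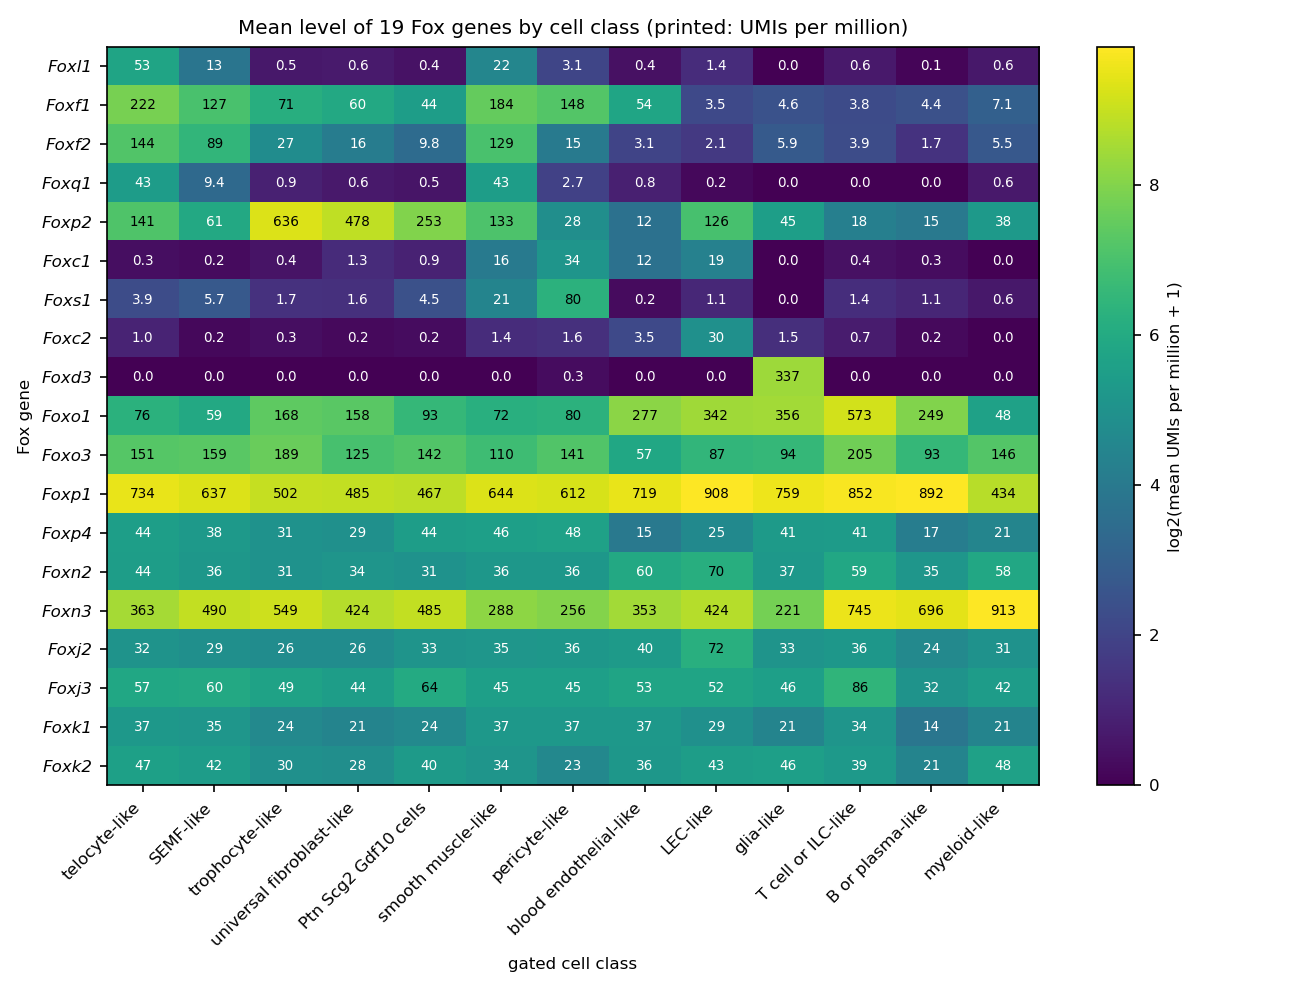
Mean level over libraries of the 19 Fox genes of at least 20 CPM (rows) in 13 gated cell classes (columns), with the mean printed in each cell and coloured on a log2 scale. Foxl1, Foxf2 and Foxq1 are brightest in telocyte-like and smooth muscle-like cells, Foxp2 in trophocyte-like cells, Foxc1 and Foxs1 in pericyte-like cells, Foxc2 in LEC-like cells and Foxd3 in glia-like cells.

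The first comparison asked which Fox genes separate the fibroblast classes. Foxl1 was concentrated in telocyte-like cells. In the order proximal 1, proximal 2, distal 1, distal 2, cecum and large intestine, kept throughout, these cells held 31.1, 34.7, 50.8, 41.5, 83.8 and 73.1 CPM, a mean of 52.5 ± 21.4 (SD, n = 6). SEMF-like cells held 10.7, 13.5, 4.66, 10.4, 21.0 and 18.1, and trophocyte-like cells 0.217, 0.354, 0.119, 0.266, 0.707 and 1.53. The 3 classes did not overlap, and within every library the order was telocyte-like, SEMF-like, trophocyte-like. In this and the later comparisons the share of all genes without overlap was not counted. The log2 fold change of Foxl1 was 6.92 ± 0.32 (SE) between telocyte-like and trophocyte-like cells (edgeR adjusted p = 2.38e-06) and 1.96 ± 0.21 between telocyte-like and SEMF-like cells (edgeR adjusted p = 0.000595).

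Foxf1, which is required for the gut mesenchyme to form, showed the same order on a shallower slope. Telocyte-like cells held 164, 225, 254, 171, 252 and 267 CPM (222 ± 44.7, SD, n = 6), SEMF-like cells 116, 119, 124, 125, 114 and 161 (127 ± 17.3), and trophocyte-like cells 68.4, 82.9, 74.6, 76.6, 50.9 and 70.7 (70.7 ± 10.9). No library of one class reached the range of another. Foxf1 differed by a log2 fold change of 1.46 ± 0.15 between telocyte-like and trophocyte-like cells (edgeR adjusted p = 0.000128) and of 0.78 ± 0.11 between telocyte-like and SEMF-like cells (edgeR adjusted p = 0.00175).

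Foxf2, the paralog of Foxf1, followed the same order. Its levels were 148, 160, 168, 142, 123 and 123 CPM in telocyte-like cells, 110, 98.6, 99.6, 94.7, 55.4 and 73.2 in SEMF-like cells and 30.7, 40.5, 26.8, 39.5, 8.49 and 13.1 in trophocyte-like cells. The 3 ranges were again apart, and the cecum was lowest in SEMF-like and trophocyte-like cells. The log2 fold change against trophocyte-like cells was 2.41 ± 0.25 for telocyte-like cells (edgeR adjusted p = 0.000124) and 1.65 ± 0.20 for SEMF-like cells (edgeR adjusted p = 0.000507). Between telocyte-like and SEMF-like cells it was 0.71 ± 0.09 (edgeR adjusted p = 0.00134), close to that of Foxf1.

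Among the fibroblast classes Foxq1 was highest in telocyte-like cells, with a wide spread between libraries. Telocyte-like cells held 59.2, 25.8, 129, 20.8, 13.3 and 8.79 CPM, SEMF-like cells 17.6, 4.80, 19.1, 6.83, 1.54 and 6.38, and trophocyte-like cells at most 1.79. Telocyte-like cells exceeded SEMF-like cells in 6 of 6 libraries although the ranges overlapped. The log2 fold change of telocyte-like cells was 5.22 ± 0.56 over trophocyte-like cells (edgeR adjusted p = 0.000145) and 1.94 ± 0.33 over SEMF-like cells (edgeR adjusted p = 0.00496). The libraries stood in the same order by Foxq1 in telocyte-like cells as by the share of those cells with an Lgr5 UMI, which was 31.0%, 19.7%, 42.4%, 14.3%, 3.52% and 1.93%. Lgr5 is a marker of villus tip telocytes and was 1 of the 7 genes of the telocyte gate.

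**Figure D2:**
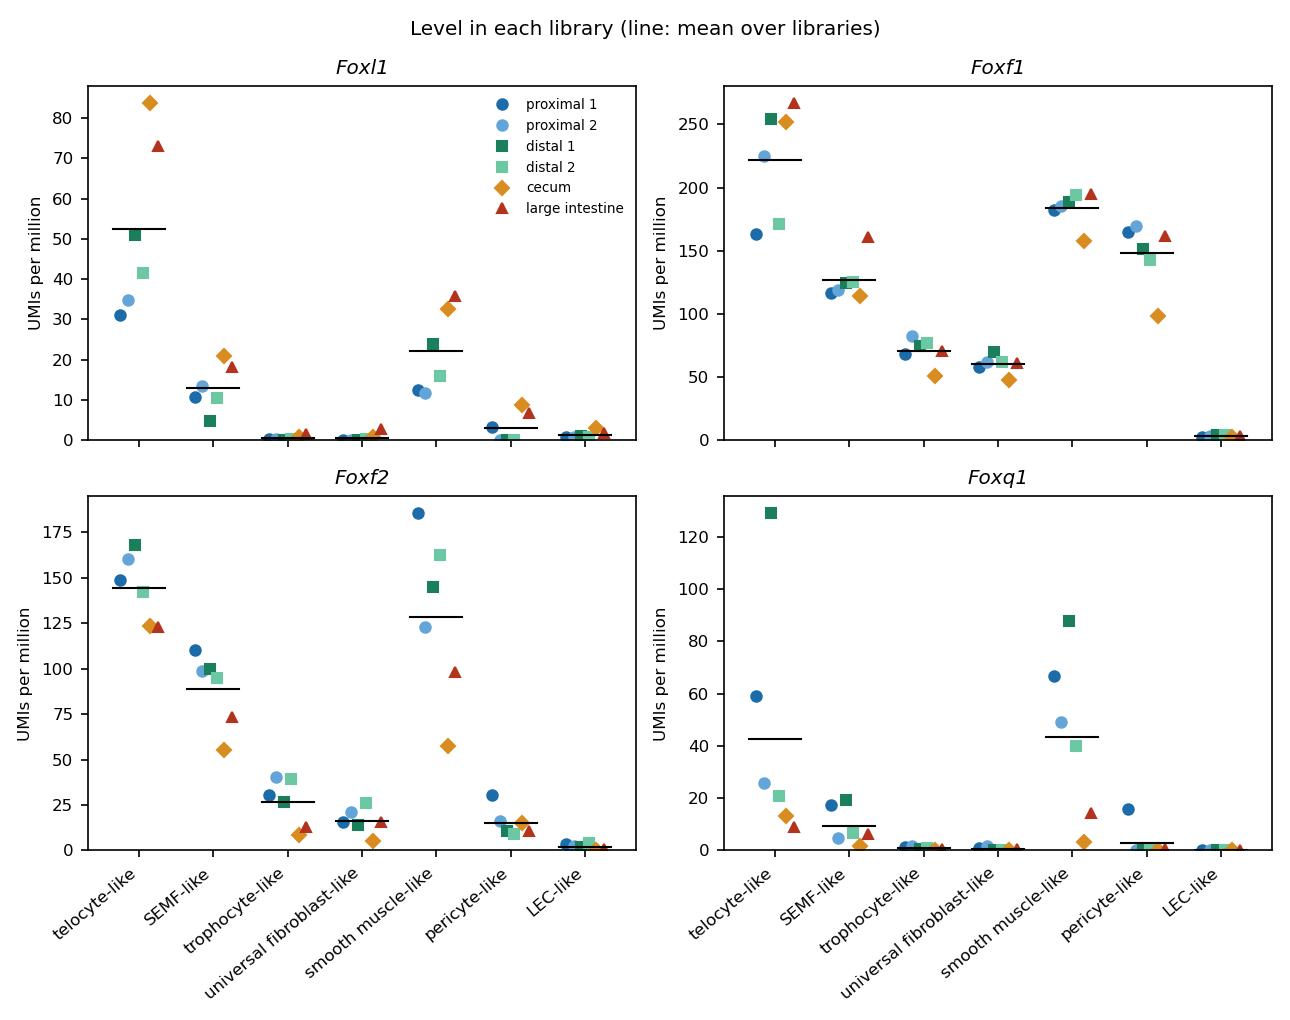
Levels of Foxl1, Foxf1, Foxf2 and Foxq1 (CPM, linear axes) in 7 gated cell classes, with 1 symbol per library and a line at the mean over libraries. In each panel the telocyte-like and smooth muscle-like columns stand above trophocyte-like and universal fibroblast-like cells, and LEC-like cells lie near 0.

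Cells with an Lgr5 UMI were compared with the other telocyte-like cells in the 4 small intestinal libraries, as a split added after the data had been seen and without a test. Foxq1 ranged from 67.4 to 289 CPM in the 8 to 36 Lgr5+ cells per library and from 11.5 to 37.0 in the Lgr5- cells. Foxl1 ranged from 48.2 to 90.8 against 21.5 to 40.2, and Foxf1 from 241 to 401 against 126 to 187. For all 3 genes the Lgr5+ range lay above the Lgr5- range. The same held for Foxp1 (896 to 1470 against 727 to 847) and Foxn2 (64.8 to 83.3 against 24.7 to 46.7). The share of all genes with such ranges was not counted. Foxf2 overlapped, at 116 to 208 against 143 to 158.

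Foxp2 ran the other way. This repressor, best known for its part in speech circuits of the brain, held 803, 703, 660, 682, 376 and 594 CPM (mean 636 ± 144) in trophocyte-like cells and 699, 428, 517, 436, 435 and 352 in universal fibroblast-like cells. Telocyte-like cells held 178, 232, 196, 185, 42.2 and 11.2, and SEMF-like cells 77.7, 91.9, 48.3, 56.0, 72.6 and 17.1. Every trophocyte-like value stood above every telocyte-like and SEMF-like value. The log2 fold change against trophocyte-like cells was -2.80 ± 0.51 for telocyte-like cells (edgeR adjusted p = 0.00284) and -3.71 ± 0.34 for SEMF-like cells (edgeR adjusted p = 0.000122). The barcodes of free RNA carried Foxp2 at 337, 265, 382, 245, 191 and 111 CPM. Pericyte-like and blood endothelial-like cells of the same libraries held 28.2 ± 15.5 (n = 6) and 11.9 ± 8.21 (n = 5). The telocyte-like value of the large intestine, 11.2, was of like size. The part of free RNA in the level of any class was not tested. With 10% of each sum removed along the free RNA profile, the difference of telocyte-like cells was larger and no longer passed the threshold (edgeR adjusted p = 0.0561).

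Within the trophocyte-like cells of the small intestine, Foxp2 and Foxf2 split in opposite directions, again described without a test on a split made after the data had been seen. Cells with a Vwc2 and no Ackr4 UMI held 430 to 532 CPM of Foxp2, and cells with an Ackr4 and no Vwc2 UMI held 821 to 978. Foxf2 stood at 43.0 to 66.6 in the former and at 15.4 to 21.0 in the latter. Neither pair of ranges overlapped over the 4 libraries, and the share of all genes with such ranges was not counted.

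Foxo1, Foxo3, Foxp1 and Foxn3 were read in every fibroblast class. Foxo1, the main target of insulin signalling in the family, held 233, 184, 190, 188, 111 and 102 CPM in trophocyte-like cells, 83.3, 70.6, 99.7, 129, 41.3 and 34.1 in telocyte-like cells and 68.6, 81.7, 56.3, 71.0, 44.0 and 35.1 in SEMF-like cells. It was lower in both classes in 6 of 6 libraries, with log2 fold changes of -1.42 ± 0.15 (edgeR adjusted p = 0.000119) and -1.69 ± 0.10 (edgeR adjusted p = 1.67e-05). Foxo3, a related factor of stress responses, was lower by 0.57 ± 0.09 and 0.44 ± 0.07 on the log2 scale, and Foxn3, a checkpoint repressor, by 0.80 ± 0.09 and 0.37 ± 0.07. Foxp1 was higher in telocyte-like cells by a log2 fold change of 0.34 ± 0.10, a call that 10 of the alternative settings lost.

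Of the 45 members 17 passed the filter on low counts between telocyte-like and trophocyte-like cells, of which 7 were higher and 4 lower, where 31.9% of all genes tested were called. Between SEMF-like and trophocyte-like cells 8 of 18 were higher and 5 lower (49.1% of all genes called), the higher ones beside Foxl1, Foxf1, Foxf2 and Foxq1 being Foxs1 (2.55 ± 0.52), the cell cycle factor Foxm1 (1.65 ± 0.43), Foxk1 and Foxk2. The Foxm1 call was lost without proximal 1, and those of Foxk1 and Foxk2 with any 1 of the 4 small intestinal libraries left out. Beside Foxp1, the telocyte-like calls of Foxn2 (0.32 ± 0.10) and Foxk1 (0.42 ± 0.12) were lost in 10 and 6 of 17 alternatives, and the SEMF-like call of Foxo4 (-0.45 ± 0.13) in 6. Without library as a block the calls lost against trophocyte-like cells were those of Foxo3, Foxk1, Foxp1 and Foxn2 in telocyte-like and of Foxo3, Foxn3, Foxs1, Foxk1, Foxk2 and Foxo4 in SEMF-like cells, and those of Foxq1 and Foxn3 were lost between telocyte-like and SEMF-like cells. Telocyte-like cells differed from SEMF-like cells in 5 of 18, with Foxl1, Foxq1, Foxf1 and Foxf2 higher and Foxn3 lower (14.9% of all genes called). Foxp2 was not called there. By the values above it was higher in telocyte-like cells in each small intestinal library and lower in the cecum and the large intestine. The median log2 fold change of the members was 0.34, 0.10 and 0.18 in these 3 comparisons, against -0.01, 0.01 and -0.04 over all genes tested. Universal fibroblast-like cells differed from trophocyte-like cells in 3 of 14 members, Foxf2 (-0.61 ± 0.14), Foxo3 (-0.49 ± 0.09) and Foxn3 (-0.31 ± 0.06), all lower, beside 23.9% of all genes. The members had a median of -0.15 there and all genes one of -0.00. Without the cecum that count was 5, without proximal 2 the Foxf2 call was lost, and none of the 14 was called without library as a block. Foxl1, Foxq1, Foxf1 and Foxf2 kept their calls in telocyte-like over trophocyte-like cells under all the alternatives tried.

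**Figure D3:**
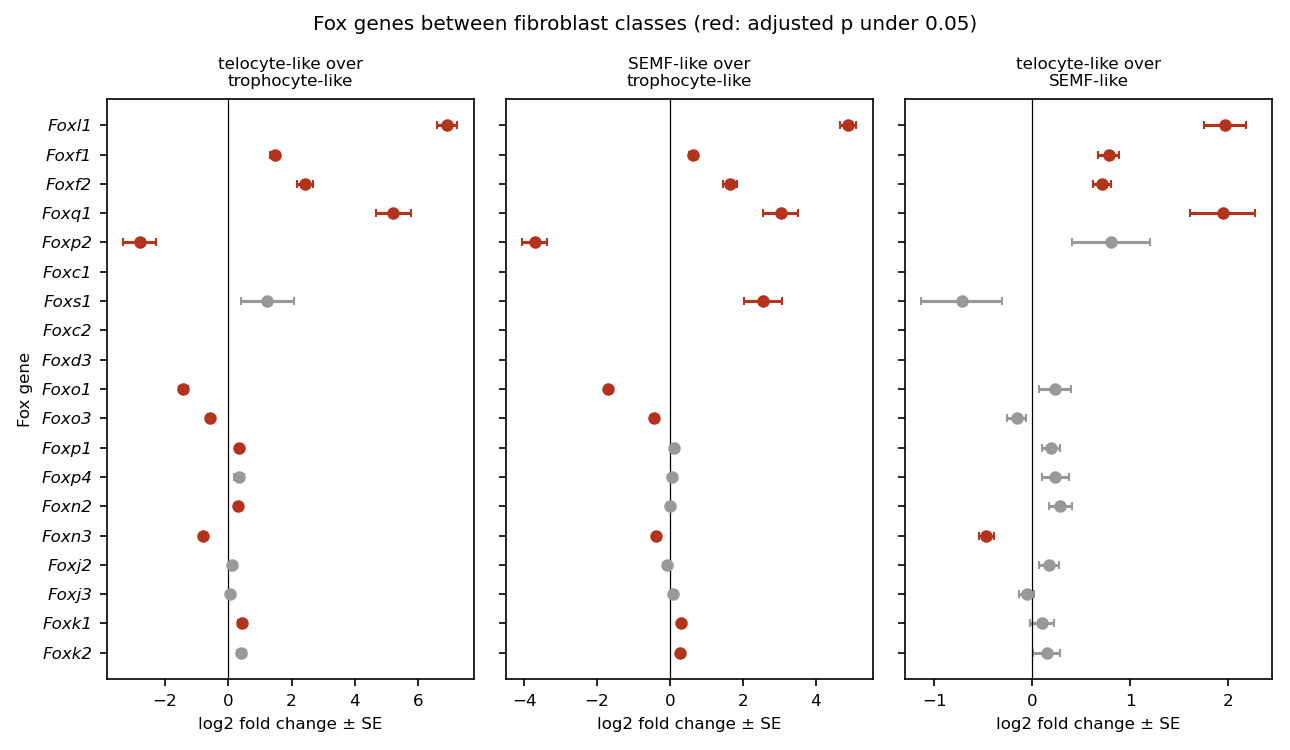
Log2 fold changes with standard errors of the Fox genes tested between 3 pairs of fibroblast classes over 6 libraries, red where the edgeR adjusted p was under 0.05. Foxl1 and Foxq1 lie farthest to the right in each panel and Foxp2 farthest to the left in both comparisons with trophocyte-like cells.

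Partner genes moved in part with these factors. Ptch1, the hedgehog receptor and itself a hedgehog target, averaged 805 CPM in telocyte-like, 596 in SEMF-like and 199 in trophocyte-like cells, with a log2 fold change of 1.82 ± 0.13 for telocyte-like over trophocyte-like cells (edgeR adjusted p = 2.06e-05). Of the 13 hedgehog pathway genes tested in that comparison it alone was higher, while 6 were lower, led by the ligand-binding coreceptors Gas1 (-3.23 ± 0.44) and Boc (-1.83 ± 0.21). Fendrr, the neighbour of Foxf1, averaged 357 CPM in telocyte-like, 222 in SEMF-like and 104 in trophocyte-like cells, the same order as Foxf1, with a log2 fold change of 1.61 ± 0.11 for the outer pair (edgeR adjusted p = 1.4e-05). Fendrr was 1 of 6 genes listed as neighbours of the Fox gene clusters. Of these, 2 were higher, 1 lower and 3 not called between telocyte-like and trophocyte-like cells. Between SEMF-like and trophocyte-like cells 3 were higher, 2 lower and 1 not called. Of 14 genes known as FOXO targets, 4 were higher in telocyte-like than in trophocyte-like cells, led by Gadd45a (1.88 ± 0.23), Cited2 (1.05 ± 0.18) and Fbxo32 (0.91 ± 0.22). The other called ones were 7 lower genes, led by Klf2 (-1.86 ± 0.12), Bcl6 (-1.10 ± 0.11) and the insulin receptor Insr (-0.73 ± 0.08). SEMF-like cells showed 1 higher and 9 lower hedgehog genes of 13, and 2 higher and 8 lower FOXO targets of 14. Their cell cycle genes were higher in 8 of 9 tested, led by Aurkb (6.20 ± 0.57), Mki67 (5.64 ± 0.54) and Cenpf (5.51 ± 0.38).

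Between telocyte-like and SEMF-like cells, Hhip (1.80 ± 0.24), Ptch1 (0.43 ± 0.12) and Disp1 (0.42 ± 0.12) were higher and Gli3 lower (-0.34 ± 0.08) of 12 hedgehog genes tested. Fendrr was higher by 0.69 ± 0.11. Among 14 FOXO targets Gadd45a (1.87 ± 0.34) and Trib1 (1.04 ± 0.25) were higher, and of 10 cell cycle genes none was called. Universal fibroblast-like cells held 4 higher and 4 lower hedgehog genes of 13 and 4 higher and 2 lower FOXO targets of 14 than trophocyte-like cells, and Fendrr was lower by 0.47 ± 0.06.

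Foxm1 followed the cycling cells. SEMF-like cells with UMIs of at least 3 of 7 cycle genes, a list without Foxm1, numbered 9 to 29 per small intestinal library. They held 87.9 to 104 CPM of Foxm1, against 0.619 to 1.32 in the other SEMF-like cells. In LEC-like cells the ranges were 32.6 to 111 and 0.332 to 0.622. The cycling range lay above the other in 4 of 4 libraries for both classes, as a description on a split added after the data had been seen.

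Mural cells carried a different pair. Foxc1, needed for vessel and mural cell development, held 39.9, 37.4, 36.6, 46.3, 19.6 and 21.9 CPM in pericyte-like cells (33.6 ± 10.6, SD, n = 6) and 15.6 ± 11.3 in smooth muscle-like cells. It averaged 0.214 to 1.34 in the 4 fibroblast classes. Foxs1, a gene known from pericytes and neural crest derivatives, held 39.9, 70.3, 52.3, 75.8, 105 and 136 in pericyte-like cells (79.8 ± 35.2), with the cecum and the large intestine highest. Smooth muscle-like cells held 4.38, 23.4, 4.78, 8.0, 56.4 and 27.1 of Foxs1, overlapping the pericyte-like range in the cecum.

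Against the 4 fibroblast classes summed, pericyte-like cells had a log2 fold change of 6.46 ± 0.28 for Foxc1 (edgeR adjusted p = 1.68e-08) and 5.63 ± 0.38 for Foxs1 (edgeR adjusted p = 4.56e-07), and neither gene's groups overlapped. How many of all genes did not overlap was not counted. Of 19 members tested, 4 were higher and 7 lower, where 40.2% of all genes were called. The 7 lower members included Foxp2 (-4.21 ± 0.25), Foxl1 (-2.18 ± 0.52) and Foxf2 (-1.95 ± 0.27). The number called was 7 without proximal 2 and 7 without distal 2, and the Foxl1 call was lost without the large intestine, with limma-voom (-1.46, adjusted p = 0.102), with DESeq2 (-1.77, adjusted p = 0.0554) and without library as a block (-1.87, edgeR adjusted p = 0.232). The members tested had a median log2 fold change of 0.00, against -0.16 over all genes. Foxf1 stood at 165, 170, 152, 143, 98.1 and 161 CPM in pericyte-like cells, so that the paralogs Foxf1 and Foxf2 (15.3 ± 7.87) parted there. The call of Foxf1 over fibroblasts (0.49 ± 0.16) was lost in 11 of the alternatives. Telocyte-like cells were 2904 of the 5396 fibroblasts summed in the large intestine and 116 of 8554 in proximal 1, which enters these comparisons.

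Smooth muscle-like cells also held the 4 genes that were high in telocyte-like cells. Foxf1 held 182, 185, 188, 194, 157 and 195 CPM there, Foxf2 185, 123, 145, 163, 57.5 and 98.3, Foxq1 66.8, 49.0, 87.7, 39.99, 3.26 and 14.2, and Foxl1 12.6, 11.7, 23.9, 16, 32.6 and 35.9. Foxl1 was below the telocyte-like value of the same library in 6 of 6, and the 2 classes were not compared by a test. Foxl1 was higher and Foxq1 lower in both libraries of the large bowel, that is cecum and large intestine, than in any of the small intestine. Smooth muscle-like cells also held 5114 to 12923 CPM of the summed fibroblast markers, against 11947 to 15391 in telocyte-like and 1996 to 7004 in pericyte-like cells. Their summed telocyte markers stood at 429 to 869. The part of this fibroblast signal in the levels of the Fox genes was not tested. Of 19 members tested against fibroblasts, 7 were higher and 4 lower (37.1% of all genes called). The higher ones were Foxc1 (5.33 ± 0.43), Foxq1 (3.55 ± 0.47), Foxs1 (3.40 ± 0.40), Foxl1 (1.78 ± 0.52), Foxf2 (1.34 ± 0.22), Foxf1 (0.88 ± 0.15) and Foxk1 (0.42 ± 0.12), and the lower ones Foxp2, Foxo1, Foxn3 and Foxo3. The Foxl1 call was lost without proximal 1 or distal 2, with limma-voom (1.26, adjusted p = 0.08) and without library as a block (0.93, edgeR adjusted p = 0.46), and that of Foxk1 in 6 of the alternatives. The median log2 fold change was 0.26 over the members tested and -0.09 over all genes. The hedgehog inhibitor Hhip, a gene of the smooth muscle gate, averaged 2706 CPM against 29.7 in fibroblasts, and Ptch1 (0.54 ± 0.13), Gli1 (0.53 ± 0.12) and Sufu (0.58 ± 0.10) were also higher. Cdon (-1.84 ± 0.52), Disp1 (-1.01 ± 0.20), Gli3 (-0.89 ± 0.10) and Gli2 (-0.50 ± 0.10) were lower, and the median over the 13 hedgehog genes tested was 0.06. Of the FOXO targets 2 were higher, Fbxo32 (2.84 ± 0.16) and Gadd45a (0.90 ± 0.27), and 4 lower, led by Ccng2 (-0.88 ± 0.13). Pericyte-like cells had none of the 13 hedgehog genes higher and 10 lower at the same threshold, and 8 FOXO targets of 14 higher, led by Fbxo32 (1.92 ± 0.26), Trib1 (1.77 ± 0.29) and Cited2 (1.24 ± 0.12), and 3 lower, Pik3ip1 (-1.52 ± 0.24), Ccng2 (-0.84 ± 0.16) and Gadd45a (-0.83 ± 0.21). Fendrr was higher in smooth muscle-like cells (0.51 ± 0.11).

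**Figure D4:**
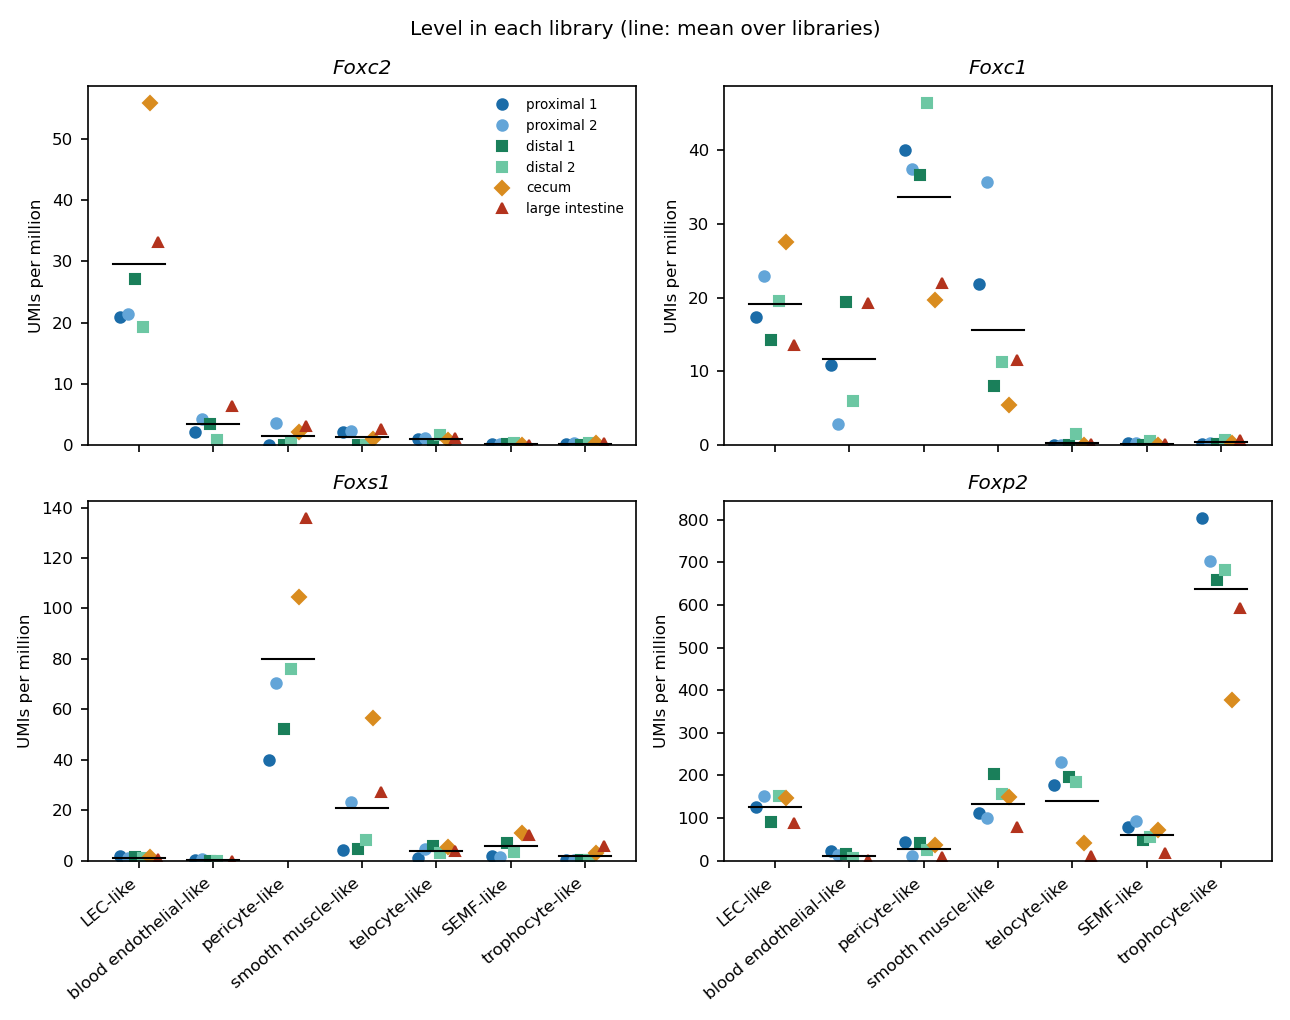
Levels of Foxc2, Foxc1, Foxs1 and Foxp2 (CPM, linear axes) in 7 gated cell classes, with 1 symbol per library and a line at the mean over libraries with at least 30 cells of the class. Foxc2 stands out in LEC-like cells, Foxc1 in pericyte-like and LEC-like cells, Foxs1 in pericyte-like cells and Foxp2 in trophocyte-like cells.

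Lymphatic endothelial cell (LEC)-like cells, with 14274 cells the largest class after the trophocyte-like cells, held the most Foxc2 of all classes and held Foxc1 as well, which was higher on average in pericyte-like cells. Foxc2 held 20.9, 21.5, 27.1, 19.3, 55.8 and 33.1 CPM (29.6 ± 13.8, SD, n = 6), with the cecum highest, and Foxc1 17.4, 22.9, 14.2, 19.6, 27.5 and 13.6 (19.2 ± 5.33). Foxf1, the nearest Fox gene upstream of Foxc2, was almost absent at 2.86, 3.42, 4.07, 4.41, 2.36 and 3.63. Foxl1, the neighbour of Foxc2 on the other side, averaged 1.40 ± 0.94.

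Between fibroblasts and LEC-like cells the log2 fold change was -6.52 ± 0.37 for Foxc2 (edgeR adjusted p = 1.21e-06), -5.70 ± 0.24 for Foxc1 (edgeR adjusted p = 2.61e-07), 4.71 ± 0.19 for Foxf1 (edgeR adjusted p = 1.93e-07) and 4.21 ± 0.31 for Foxf2 (edgeR adjusted p = 5.11e-06). For these 4 genes the groups did not overlap. The share of all genes without overlap was not counted, so this adds no support to the calls. Of 20 members tested, 7 were higher and 7 lower, where 65.5% of all genes were called, and their median log2 fold change was -0.13 against 0.09 over all genes. LEC-like cells also held more Foxo1, at 359, 357, 319, 370, 331 and 318 CPM (log2 fold change of fibroblasts -1.36 ± 0.23), more Foxj2 (-1.30 ± 0.13), Foxn2 (-0.99 ± 0.08) and Foxp1 (-0.75 ± 0.10), and less Foxp2, Foxo3 and Foxp4. These 14 calls held when any 1 library was left out and under each other alternative. Foxp2 was still present at 125, 152, 91.2, 151, 148 and 88.8, above every blood endothelial-like value.

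The hedgehog genes were higher in fibroblasts for 12 of 14 tested, led by Gli3 (4.83 ± 0.16), Gli2 (4.82 ± 0.15) and Gas1 (4.51 ± 0.20), and 1, the ligand Dhh, was lower (-2.82 ± 0.71). Fendrr averaged 144 CPM in fibroblasts and 8.03 in LEC-like cells (4.18 ± 0.14). Of 10 cell cycle genes 8 were lower in fibroblasts, led by Mki67 (-1.60 ± 0.37), Cenpf (-1.31 ± 0.23) and Aurkb (-1.27 ± 0.39). FOXO targets split into 7 higher, led by Irs2 (4.19 ± 0.18), Cited2 (3.05 ± 0.08) and Bcl6 (2.15 ± 0.16), and 4 lower, led by Trib1 (-1.12 ± 0.41).

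Blood and lymphatic endothelium were told apart by Foxf1 and Foxc2. In the 5 libraries with at least 30 blood endothelial-like cells (the cecum had 13), Foxf1 held 42.0, 42.9, 58.2, 66.2 and 62.3 CPM, and Foxc2 2.24, 4.29, 3.53, 0.849 and 6.41. All Foxf1 values exceeded and all Foxc2 values were below those of LEC-like cells. The log2 fold change of blood endothelial-like over LEC-like cells was 3.96 ± 0.12 for Foxf1 (edgeR adjusted p = 4.24e-09), -2.75 ± 0.23 for Foxc2 (edgeR adjusted p = 5.34e-06) and -3.11 ± 0.30 for Foxp2 (edgeR adjusted p = 1.25e-05). Foxc1, at 10.9, 2.86, 19.4, 5.94 and 19.2, overlapped the LEC-like values and was not called (-0.57 ± 0.38, edgeR adjusted p = 0.239). It was called lower with no filter on low counts (-0.70, edgeR adjusted p = 0.0221) and with a gate that asks for 1 more marker (-2.89, edgeR adjusted p = 6.06e-05), and 55.8% of the blood endothelial-like cells stood at the limit of the gate used here. 2 of 15 members were higher and 6 lower, where 55.1% of all genes were called, with a median of -0.18 against -0.02, and 5 were called without proximal 1 and 5 without proximal 2. Fendrr was higher with Foxf1, at 49.0 against 8.54 CPM (2.69 ± 0.16). Of the FOXO targets 6 of 14 were higher, led by Cited2 (2.25 ± 0.16), Insr (2.07 ± 0.14) and Klf2 (2.00 ± 0.17), and 4 lower, led by Gadd45a (-1.58 ± 0.34). Hedgehog genes split evenly, with 3 higher, led by Disp1 (2.39 ± 0.19), and 3 lower, among them Cdon (-1.24 ± 0.26), of 9.

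Rare classes were described without a test. Foxd3 was read in glia-like cells at 415 and 260 CPM in proximal 1 and 2, the libraries with at least 30 such cells, and averaged at most 0.266 in every other class. In T cell or ILC-like cells Foxo1 averaged 573 ± 59.8 (SD, n = 4), Foxo3 205 ± 49.3 and Foxj3 85.6 ± 11.6, each the highest mean of its gene over the classes with at least 30 cells in 2 or more libraries. These means cover the 4 small intestinal libraries only, whereas those of the fibroblast classes include the large bowel. For Foxo3 the ranking depends on this. In the same 4 libraries trophocyte-like cells held it at 181 to 285 (Vwc2 without Ackr4) and 221 to 287 (Ackr4 without Vwc2). The epithelial-like cells of the large intestine held more Foxj3, at 101. Foxp3, the factor of regulatory T cells, held 21.3, 20.1, 24.7 and 4.88 in T cell or ILC-like cells. Foxn3 was highest in myeloid-like cells, at 913 ± 95.7 (n = 3). The Foxk genes, Foxj2, Foxj3, Foxn2 and Foxp4 were present in every class with at least 2 such libraries, with means from 13.6 (Foxk1 in B or plasma-like cells) to 85.6 (Foxj3 in T cell or ILC-like cells). They include partners of chromatin complexes and widely used repressors, and among them Foxj2 and Foxn2 had their highest means in LEC-like cells, at 71.9 ± 17.3 and 70.1 ± 10.7.

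The second comparison asked how the same genes differ along the bowel, with the cecum and the large intestine (the large bowel, 1 library each) set against the 4 small intestinal libraries. In telocyte-like cells Foxl1 was higher in the large bowel, at 83.8 and 73.1 against 31.1 to 50.8 CPM, without overlap (log2 fold change 1.09 ± 0.21, edgeR adjusted p = 0.00826). Foxp2 was lower, at 42.2 and 11.2 against 178 to 232 (-2.92 ± 0.48, edgeR adjusted p = 0.00434). Foxo3 was lower, at 67.8 and 62.1 against 165 to 233 (-1.51 ± 0.20, edgeR adjusted p = 0.00179), and so were Foxo1 (-1.27 ± 0.24), Foxo4 (-1.77 ± 0.44), Foxp1 (-0.94 ± 0.18), Foxn3 (-0.78 ± 0.17) and Foxq1 (-2.36 ± 0.63).

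1 of 16 members was thus higher and 7 were lower in telocyte-like cells, where 21.8% of all genes tested were called. The number called was 3 without the large intestine library. Proximal 1, distal 1, cecum and large intestine carried one set of hashtags, and proximal 2 and distal 2 another. Both large bowel libraries are thus in the same set. With only the 4 libraries of that set the number was 4, and with cells thinned to 2500 UMIs it was 5. Foxo3 kept its call under all the alternatives, and Foxp2 under all but the removal of 10% free RNA (-4.17, edgeR adjusted p = 0.0618). The Foxl1 call was lost with thinned cells (0.73, edgeR adjusted p = 0.111) and within one hashtag set. Of the 8 calls, 6 stayed without proximal 1, 6 with the stricter gate, 6 with 10% free RNA removed and 7 without distal 1. Not every call lost under these settings is named here. Without the large intestine library the calls of Foxq1, Foxo1, Foxo4, Foxp1 and Foxn3 were lost, without the cecum those of Foxo4 and Foxn3, and without proximal 1 that of Foxq1 (edgeR adjusted p = 0.0675).

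SEMF-like cells showed Foxl1 higher in the large bowel as well, at 21.0 and 18.1 against 4.66 to 13.5 CPM (1.15 ± 0.31, edgeR adjusted p = 0.0257). Foxs1 was higher, at 11.1 and 9.98 against 1.38 to 6.84 (1.96 ± 0.56, edgeR adjusted p = 0.0301). Foxo3 was lower, at 83.1 and 82.5 against 160 to 223 (-1.08 ± 0.16, edgeR adjusted p = 0.00354), and so were Foxp1 (-0.84 ± 0.18), Foxk1 (-0.72 ± 0.16), Foxo1 (-0.63 ± 0.17), Foxn3 (-0.52 ± 0.16), Foxk2 (-0.50 ± 0.13), Foxf2 (-0.47 ± 0.14) and Foxj2 (-0.38 ± 0.11). None of these 10 genes overlapped between small and large bowel. The share of all genes without overlap was not counted, so this adds no support to the calls. 2 of 18 members were higher and 8 lower, where 37.1% of all genes were called. The number was 3 without proximal 1, 3 without distal 2, 4 without the cecum and 5 without the large intestine, and Foxo3 alone kept its call in all the alternatives. The Foxl1 call was lost in each of those 4 cases.

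Foxp2 was the only 1 of 19 members tested whose difference between small and large bowel passed a test of that difference between the 2 classes. Its log2 large over small bowel was lower by 2.28 ± 0.22 in telocyte-like than in SEMF-like cells (edgeR adjusted p = 0.000217), where 4.04% of 15552 genes were called. In SEMF-like cells the values of the large bowel, 72.6 and 17.1 CPM, lay on both sides of 48.3, the lowest of the small intestine (48.3 to 91.9), and without the cecum Foxp2 was called lower in the large bowel there too (-1.83, edgeR adjusted p = 0.0241). The difference between the classes, tested within libraries, was -2.39 to -2.12 with any 1 library left out and passed the threshold each time, and without the cecum Foxq1 passed as well. It was -1.09 (edgeR adjusted p = 0.0279) with the stricter gate, -1.17 with doublets kept and -4.71 (edgeR adjusted p = 0.0298) with 10% free RNA removed. These alternatives were chosen after the data had been seen. The class with the most Foxp2 is the trophocyte-like one. The summed level of its 7 markers was 1914 to 5945 CPM in the small and 4564 to 9006 in the large bowel in telocyte-like cells, ranges that overlap, and 4365 to 6456 and 8888 to 11860 in SEMF-like cells, ranges that do not, with Adamdec1 the main part of the sum. Its part in the Foxp2 difference was not tested.

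4 measurements moved with the bowel comparison, and their part in it was not tested. The first was gene length. Over all genes, the median log2 fold change of large over small bowel was -0.30 in SEMF-like and -0.39 in telocyte-like cells for genes over 50 kb, and 0.16 and 0.19 for shorter ones. The 10 members over 50 kb had medians of -0.51 and -0.63. The shorter members had medians of -0.43 in SEMF-like cells (8 genes) and -0.18 in telocyte-like cells (6 genes). Foxp2, Foxp1 and Foxn3 span 541, 597 and 374 kb, whereas Foxl1 spans 2.71 kb. Over all members tested the median was -0.47 in SEMF-like and -0.44 in telocyte-like cells, against 0.02 and -0.03 over all genes.

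The second was the makeup of the classes. Lgr5+ cells formed 14.3% to 42.4% of telocyte-like cells in the small intestine, 3.52% in cecum and 1.93% in large intestine. Among Lgr5- cells alone, Foxl1 stood at 85.0 and 72.5 CPM in the 2 large bowel libraries against 21.5 to 40.2 in the small intestine, and Foxp2 at 41.9 and 10.9 against 107 to 259. Both differences were thus still without overlap, whereas Foxq1 overlapped there, at 13.9 and 8.50 against 11.5 to 37.0. SEMF-like cells with an Lrat or Itga8 UMI formed at least 98.2% of the class in the small intestine, 18.3% in cecum and 8.51% in large intestine. Within them Foxl1 stood at 21.8 and 17.0 against 4.74 to 13.5, Foxo3 at 91.8 and 119 against 160 to 223, and Foxf2 at 56.1 and 64.2 against 95.1 to 110, all without overlap. These subsets were chosen after the data had been seen.

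The third was the free RNA, which held Foxl1 at 2.93, 2.42, 0.988, 1.76, 9.61 and 26.4 CPM. In trophocyte-like and universal fibroblast-like cells of the large intestine Foxl1 stood at 1.53 and 2.70, and in those of the cecum at 0.707 and 0.693, below the SEMF-like values of the same libraries. With 10% of each sum removed along the free RNA profile, the Foxl1 call of large over small bowel was lost in SEMF-like cells (1.05, edgeR adjusted p = 0.0507) and kept in telocyte-like cells.

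The fourth was the level of other classes' markers, each a list of 7 genes. In SEMF-like cells the trophocyte markers were higher in the large bowel, as given above, the summed universal fibroblast markers stood at 96.2 to 203 CPM in the small and 365 to 659 in the large bowel, and the smooth muscle markers at 305 to 444 and 222 to 242. In telocyte-like cells the universal fibroblast markers stood at 166 to 444 and 476 to 511, and the smooth muscle markers at 436 to 634 and 357 to 415. None of these ranges overlapped, whereas the LEC markers of the large bowel, at 81.1 to 91.6 over both classes, lay within those of the small intestine.

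**Figure D5:**
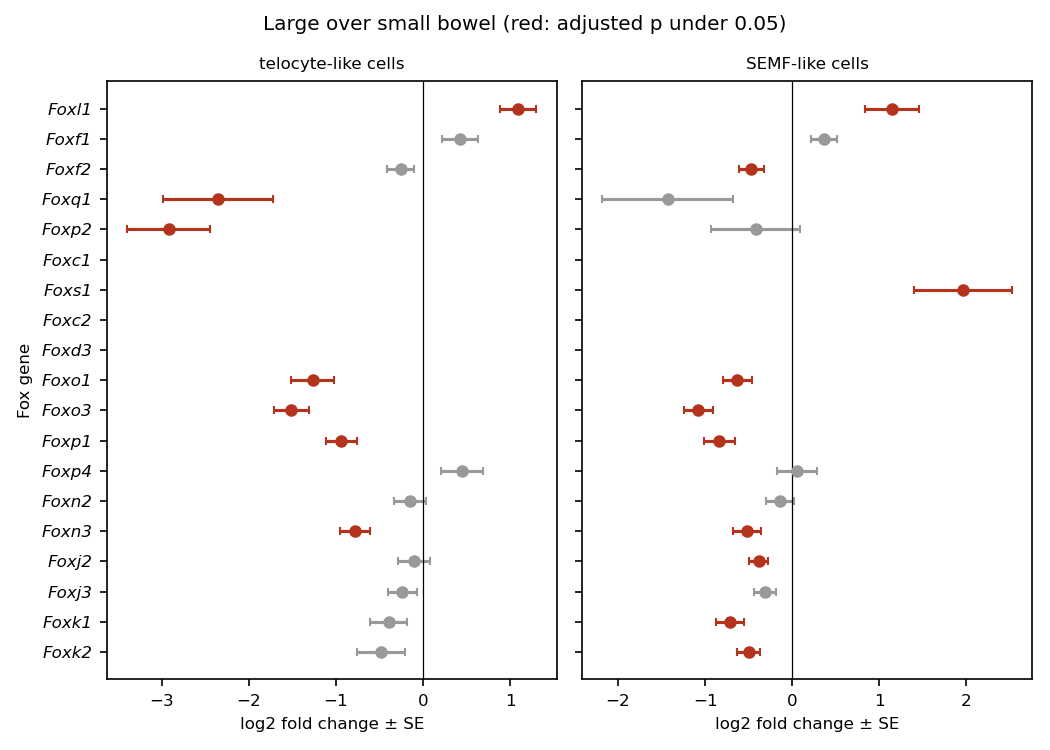
Log2 fold changes with standard errors of the Fox genes tested between large bowel (cecum and large intestine, 2 libraries) and small intestine (4 libraries) in telocyte-like and SEMF-like cells, red where the edgeR adjusted p was under 0.05. Foxl1 lies to the right of 0 in both panels, Foxs1 in SEMF-like cells, and most other members, Foxo3 and Foxp1 among them, lie to the left.

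Among the partner genes, Gadd45a (2.58 ± 0.22), Trib1 (1.89 ± 0.19), Bcl6 (1.61 ± 0.32) and Klf2 (1.20 ± 0.25) were higher in SEMF-like cells of the large bowel and Insr (-1.0 ± 0.14) and Pik3ip1 (-0.81 ± 0.26) lower, of 14 FOXO targets tested. In telocyte-like cells Klf2 was higher (1.21 ± 0.25) and Insr (-1.14 ± 0.17), Sesn3 (-1.14 ± 0.29) and Sesn1 (-0.79 ± 0.15) lower. Hedgehog genes were called in few cases, with Gas1 lower in SEMF-like cells (-2.07 ± 0.60), and Boc (-1.21 ± 0.21) and Gli2 (-0.71 ± 0.19) lower in telocyte-like cells. Fendrr was lower in SEMF-like cells (-0.63 ± 0.16) although Foxf1 was not called (0.36 ± 0.15, edgeR adjusted p = 0.0913). Of the 6 neighbours of the Fox gene clusters, 1 was higher, 2 lower and 3 not called there. Foxf1 was called higher there with the stricter gate (0.66, edgeR adjusted p = 0.022) and without the cecum (0.58, edgeR adjusted p = 0.038).

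Along the small intestine no member was called between distal and proximal libraries in the fit without a block on the replicate number. This held for 21 members in trophocyte-like, 18 in SEMF-like and 19 in LEC-like cells, beside 0.073%, 0% and 0% of all genes called by edgeR. At an unadjusted p under 0.05 there were 1, 2 and 0 members, and limma-voom and DESeq2 called 0 in each class as well. With 2 libraries against 2, the test recovered 39% of 200 genes given a 2-fold change in simulated trophocyte-like counts. The simulation used a set dispersion of 0.03, not one estimated from these data. Changes of that size could thus be missed, and the share missed in these data is not known. Foxp2 had a log2 fold change of -0.67 ± 0.16 in SEMF-like cells, at 48.3 and 56.0 CPM in the distal against 77.7 and 91.9 in the proximal libraries (edgeR adjusted p = 1.00). Foxs1 stood at 6.84 and 3.23 CPM in distal and 1.65 and 1.38 in proximal SEMF-like cells (1.73, edgeR adjusted p = 1.00), and with no filter on low counts it was called (1.71, edgeR adjusted p = 0.00363). Both genes were called with the replicate number as a block, a pairing that no label states. Of the hedgehog genes Hhip was lower in distal trophocyte-like cells (-2.35 ± 0.17, edgeR adjusted p = 0.016), the only partner gene called in the 3 classes.

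In the RefSeq promoters at hand (GRCm38.p6, 250 bases before to 50 after the start), 11 of the 19 described members had a window. The forkhead motif TGTTTAC, searched on both strands, was in none of them and in 4.05% of 27025 genes. The GLI motif GACCACCCA was in none of them either and in 0.289% of all. The absence says only that these letters are not in these windows.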

How the data were processed

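Libraries were made with the 10x 3′ chemistry from sorted live tdTomato+ lamina propria cells. Per the labels, the authors aligned and counted reads with Cell Ranger 8.1.0 on mm39 with tdTomato added, and deposited raw UMI counts of every barcode. Whether intronic reads were counted and with which strand setting is not given in the sources used here. The hashtag counts served only to drop barcodes with several hashtags.

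Barcodes had to hold 1000 to 7500 genes and 2500 to 40000 UMIs, of which less than 10% mitochondrial. Cells with several hashtags or with the markers of more than 1 lineage were dropped, and the rest were gated by the number of distinct markers seen. A class needed 4 of 7 telocyte, 4 of 10 SEMF, 4 of 7 trophocyte or 5 of 7 universal fibroblast markers, and of fibroblasts 5 of 6 shared markers with Pdgfra. Fibroblasts with at least 2 of Ptn, Scg2 and Gdf10 were set apart first. Telocyte-like cells, which also needed at least 2 Pdgfra UMIs, were taken next. Each remaining fibroblast went to the list with the largest share of its markers seen, and ties received no class. Counts were summed per library and class with at least 30 cells and tested with edgeR 4.0.16 (quasi-likelihood, TMM, filterByExpr with a minimum count of 10, R 4.3.3), with library as a block between classes and none between regions. P-values were adjusted by Benjamini-Hochberg over all genes tested, and genes with an adjusted p under 0.05 were called. The SE was the log2 fold change over the square root of F. limma 3.58.1 and DESeq2 1.42.0 served as alternatives. Tested on simulated data, edgeR recovered 68.5%, 86%, 62% and 39% of 200 genes changed 2-fold in the telocyte-like against trophocyte-like, fibroblast against LEC-like, SEMF-like bowel and trophocyte-like region designs, with 1.27% to 4.86% false calls. The simulated counts had a set dispersion of 0.03, not estimated from these data, and no difference between libraries beyond depth. The changed genes had a mean expected count of at least 10. These shares hold for those settings only.

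Members averaging at least 20 CPM in a class with at least 30 cells in 2 or more libraries were described singly. Of the hedgehog, FOXO target and cell cycle lists, counts and up to 3 called genes per direction were given in the comparisons that use them. Of the neighbours of the Fox gene clusters only Fendrr was named, with the counts of the list in some comparisons. Partner genes beyond 3, such as Klf2 and Fendrr in some comparisons, were named after their values were seen. The members, marker lists and partner lists were chosen with earlier results of these data known. Sequences were read from GRCm39 with GENCODE annotation. A few sequences and 1 partner gene are not reported here. The limit that a count of 0 allows was set at 3 counts and covers counting error only. Python 3.11.15 was used for gating.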

Additional observations from a re-analysis of the deposited data

Results flagged for a closer look

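Foxp2 was flagged because its log2 large over small bowel differed between classes by -2.28 (telocyte-like minus SEMF-like, edgeR adjusted p = 0.000217), with 42.2 and 11.2 against 178 to 232 CPM in telocyte-like cells and 72.6 and 17.1 against 48.3 to 91.9 in SEMF-like cells.

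Foxc1 in telocyte-like cells was flagged because distal 2 stood apart from the other 3 small intestinal libraries, at 1.60 CPM, which rests on a single UMI. 34 groups of 4 libraries were examined this way, and chance flags about 1 in 20 of them.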

How the results depend on the processing

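The number of Fox genes called was recomputed 205 times, over all comparisons and settings together, of which 181 stayed within 1.5 times. The 181 include the 3 region comparisons, where the main count was 0 and almost every alternative gave 0 as well. None of 3312 fold changes of single Fox genes turned its direction past the threshold (187 lost and 71 gained a call). Without library as a block the counts were 7 for telocyte-like and 7 for SEMF-like against trophocyte-like cells, 3 for telocyte-like against SEMF-like, 0 for universal fibroblast-like against trophocyte-like and 6 for pericyte-like cells against fibroblasts. The universal fibroblast-like count of 3 was 5 with no filter on low counts, 5 with the stricter gate and 6 with the small intestinal libraries only, an alternative chosen after seeing the data. Large against small bowel gave 5 in SEMF-like cells with 10% free RNA subtracted and 4 with the shared hashtag set, and 5 in telocyte-like cells with thinned cells and 4 with the shared hashtag set. Distal against proximal SEMF-like cells gave 1, Foxs1, with no filter on low counts.

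With 1 library left out at a time, the counts ranged from 9 to 11 (telocyte-like against trophocyte-like), 9 to 13 (SEMF-like against trophocyte-like), 5 to 6 (telocyte-like against SEMF-like), 2 to 5 (universal fibroblast-like), 14 to 15 (fibroblasts against LEC-like), 7 to 12 (pericyte-like), 9 to 12 (smooth muscle-like), 5 to 8 (blood endothelial-like), 3 to 12 (SEMF-like bowel), 3 to 8 (telocyte-like bowel) and 0 to 0 in the 3 region comparisons. The cause of these shifts was not tested, beyond the fewer samples that leaving out a library leaves.

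Replicate numbers of the proximal and distal libraries are shared numbers with no stated pairing. Deviations of same-numbered libraries correlated at 0.182 to 0.382. With the replicate block, distal against proximal SEMF-like cells gave 2 called Fox genes in place of 0, Foxs1 (1.64, edgeR adjusted p = 0.00106) and Foxp2 (-0.67, edgeR adjusted p = 0.014), and trophocyte-like and LEC-like cells 0. Same-numbered libraries of the 2 regions carried the same 3 hashtags. Of the comparisons with calls, the SEMF-like bowel one had the widest range of counts with 1 library left out, 3 to 12. Universal fibroblast-like against trophocyte-like cells alone lost every call under an alternative. The 56 to 116 telocyte-like cells of each small intestinal library limit what that class can show there.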

Other observations

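In the small intestine, cycling SEMF-like cells also differed in other members, as a description over 9 to 29 cells per library. Foxo1 stood at 37.2 to 52.7 CPM in cycling and 56.5 to 82.0 in other SEMF-like cells, Foxp2 at 7.03 to 27.3 against 49.6 to 92.6, and Foxf1 at 130 to 180 against 116 to 125. The first 2 were lower and the last higher in 4 of 4 libraries. Foxn3 (374 to 458 against 484 to 640), Foxk1 (6.19 to 35.1 against 36.8 to 44.8), Foxp1 and Foxo3 were also lower in 4 of 4. Foxl1 (10.9 to 31.0 against 4.29 to 13.5) and Foxn2 were also higher in 4 of 4. In cycling LEC-like cells Foxj2 stood at 10.9 to 30.3 against 70.7 to 94.2, and it was not the only member lower in 4 of 4 there. The share of all genes lower or higher in 4 of 4 libraries was not counted in either class.

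Trophocyte-like cells with Vwc2 and without Ackr4 also held more Foxk1 (27.9 to 34.5 against 20.5 to 25.2 CPM) and Foxk2 (33.5 to 41.8 against 22.8 to 31.3) than those with Ackr4 and without Vwc2, in 4 of 4 small intestinal libraries. The share of all genes that did so was not counted. In the cecum and the large intestine only 6 and 2 trophocyte-like cells had Vwc2 without Ackr4.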
